A study of Homo sapiens with 18 samples.

Results

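The germinal centre dark zone genes described here are 9 genes: the transcription regulators MYBL1, LMO2 and ELL3, the germinal centre markers SERPINA9, SUGCT and GCSAM, the proliferation gene STMN1, and the DNA repair genes UNG and POLH. A peak of open chromatin was given to the RefSeq protein-coding gene whose span on GRCh38 holds its centre, or otherwise to the nearest such gene within 50 kb. By that rule 51 of the 71318 peaks belong to the set. They fall on 7 of the 9 genes, since GCSAM and POLH received 0 peaks. SUGCT has 22 of the 51, MYBL1 10, LMO2 8, SERPINA9 and STMN1 4 each, UNG 2 and ELL3 1.

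The dark zone is the part of a germinal centre where B cells divide rapidly and where their antibody genes are mutated. Cells then move to the light zone, where they are selected, and many return to divide again. UNG removes uracil from DNA and POLH copies past lesions with errors, so these repair genes take part in shaping antibodies. Raji is an established line of Burkitt lymphoma, which is a tumour of germinal centre B cells. SMARCA4 (BRG1) is an ATPase of the BAF complex, which moves nucleosomes and so opens chromatin.

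Open chromatin was mapped by Omni-ATAC-seq, an assay whose transposase inserts adapters into accessible DNA. The 6 groups are Raji cells labelled GFP high or GFP low at 24, 48 and 72 h. All carry the genotype label Smarca4+/+, in a series that removes SMARCA4 protein through an auxin-inducible degron. The sources used here do not give what GFP marks, which GFP level lacks the protein, or whether the line is 1 clone. The squared differences between the 3 columns of counts in a group averaged 1.80 times their counting variance, less than between groups, and the columns were summed to 1 library, so each GFP level has 3 libraries, 1 per time. Nothing in the labels says that they came from separate cultures, so p-values measure only how the GFP difference varied between these libraries, which may be technical.

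The 6 libraries held 22908652 to 29790483 counts. As a check of the cell type, 7 B cell marker genes had a peak at a gene end, and their gene-end peaks summed to 231 to 243 CPM (counts divided by the scaled library total) in GFP high and 242 to 256 in GFP low. T cell markers had such a peak at 5 of 8 genes, with sums of 109 to 112 and 85.9 to 96.5 CPM, and CD3E alone reached 38.1 CPM, so open T cell genes were seen in these libraries. Myeloid markers summed to 11.9 to 13.5 and 8.35 to 11 CPM, with CD14, LYZ, CSF1R, MPO and CD33 lacking a gene-end peak. Epithelial and stromal markers summed to 53.9 to 57.0 and 54.8 to 62.8 CPM, with EPCAM, KRT8, KRT18 and CDH1 lacking one. Over all their peaks, 15 of 26 peaks of T cell markers (57.7%, median log2 change -0.49) and 5 of 9 of myeloid markers (55.6%, median -0.69) fell in GFP low, beside 8 of 45 of B cell markers (17.8%, median 0.00) and 4 of 21 of epithelial and stromal markers (19.0%, median 0.01). Of all peaks 25.4% fell. The falls at T cell and myeloid markers go in the direction of those of the set, given below. The part of other cells in the results was not tested. In these bulk libraries fewer cells with an open region and a less open region per cell cannot be told apart.

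The comparison asked how accessibility at these genes in GFP low cells compared with that in GFP high cells, taking the 3 times together. Of the 51 peaks, 18 fell and 5 rose in GFP low (edgeR quasi-likelihood test, model of time and GFP level, Benjamini-Hochberg adjusted p under 0.05 over all peaks). That is 35.3% and 9.80%, beside 25.4% and 13.4% of all peaks. The median log2 change was -0.11 in the set and 0.03 over all peaks. Falls lay at MYBL1, SERPINA9, LMO2, SUGCT and STMN1, and rises at MYBL1, STMN1 and UNG. The 3 libraries of GFP low lay wholly under those of GFP high in 16 of the 51 peaks, 15 of them among the falls. They lay wholly above in 5 of the 51, 4 of them among the rises. Over all peaks the same held for 25.1% (under) and 20.8% (above).

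The counts are given by position. Among the 9 peaks within 1 kb of a gene end, 3 rose and 1 fell, beside 34.4% and 4.24% of all peaks at gene ends. Inside genes, 11 of 29 peaks fell and 2 rose, beside 30.3% and 7.98%. Between genes, 6 of 13 fell and the other 7 were not called, beside 30.6% that fell and 8.96% that rose among all such peaks. The set thus had a share of rises at gene ends (33.3%) close to that of all peaks, and 15 of its 18 falls lay at least 2 kb from an end of the gene, as did 38 of all 51 peaks. The 3 rises at gene ends kept their calls with RLE, upper-quartile and library-total scaling, but not with offsets that follow abundance (loess scaling). Such offsets take out any change that follows abundance, whatever its source. With them 3 of the 9 gene-end peaks fell and the other 6 were not called. Among all gene-end peaks 4.07% then fell and 10.4% rose. SUGCT supplied 8 of the falls, in 36.4% of its 22 peaks. The 29 peaks without it held 10 falls (34.5%) and 5 rises (17.2%), beside 25.4% and 13.4% of all peaks.

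**Figure D1:**
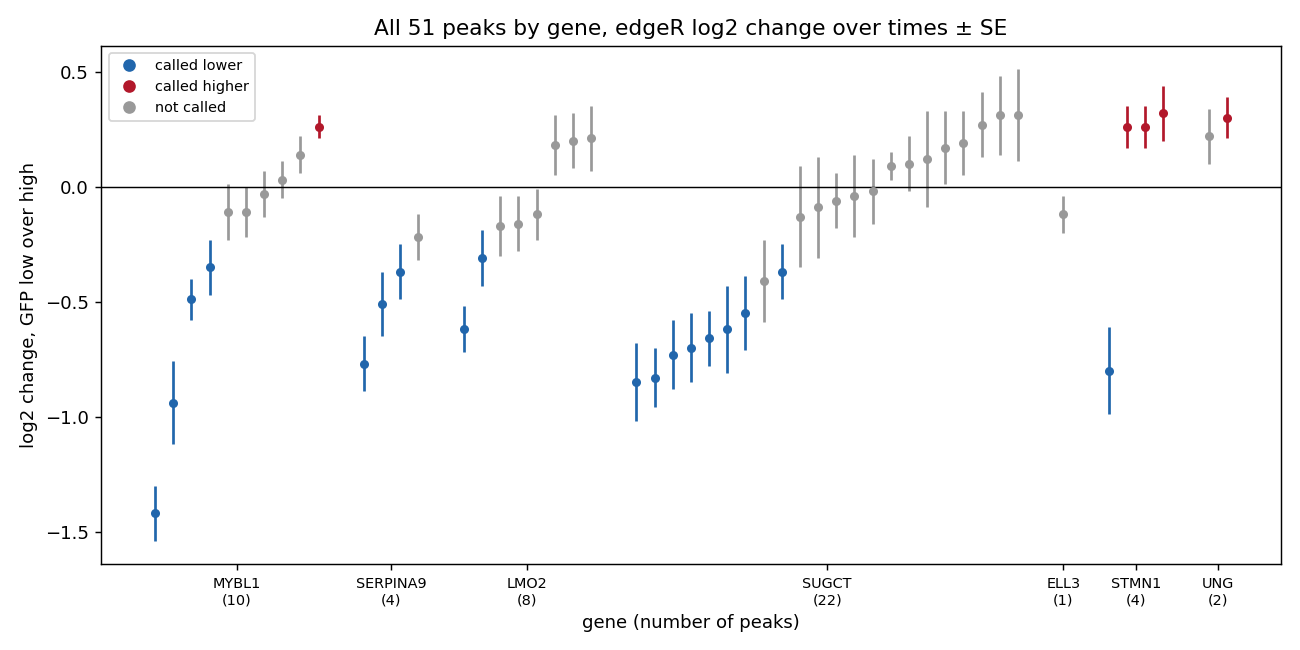
The log2 change in accessibility (GFP low over GFP high, edgeR, y axis) is plotted for all 51 peaks, grouped by gene along the x axis and ordered by value within a gene, with bars of 1 SE over 6 libraries. Blue points are the 18 falls and red points the 5 rises; all 4 SERPINA9 peaks lie below 0, and MYBL1 spans -1.42 to 0.26.

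MYBL1 codes for A-MYB, a transcription factor of dividing germinal centre B cells. It held both the largest fall of the set and its most accessible peak. The fall lay 16.8 kb outside the end of the gene at the lower coordinate, at chr8:66545110-66545610 (GRCh38, intergenic). Its level was 14.2, 14.8 and 16.9 CPM in GFP high at 24, 48 and 72 h and 5.23, 5.23 and 6.79 CPM in GFP low. The highest GFP low library was thus far under the lowest GFP high library. The means were 15.3 ± 1.40 and 5.75 ± 0.903 CPM (SD over the times, n = 3), so GFP low kept 37.6% of the GFP high level. The log2 change was -1.42 ± 0.12 (SE, adjusted p = 3.65e-08), which ranks 330 from the lowest among the 71318 peaks.

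Peaks near it at MYBL1 moved less, and these were chosen after their values were seen. The peak 15.2 kb outside the gene went from 33.8, 36.5 and 35.6 to 23.3, 25.9 and 26.4 CPM, without overlap, a log2 change of -0.49 ± 0.09 (adjusted p = 0.00023). The peak 17.8 kb outside changed by -0.35 ± 0.12 (adjusted p = 0.0213), a call lost with loess scaling, with DESeq2 and without the 48 h or the 72 h pair of libraries, and the peak 20.3 kb outside was at -0.11 and was not called. Inside the gene, 24.0 kb from that end, a weak peak of 4.56, 5.05 and 6.19 CPM in GFP high was at 2.12, 2.99 and 3.12 CPM in GFP low, a log2 change of -0.94 ± 0.18 (adjusted p = 0.000269).

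At the opposite end of MYBL1 the direction was reversed. The peak 0.3 kb outside that end, at chr8:66613253-66613753, averaged 117 CPM, more than 99.7% of all peaks. Its libraries were at 102, 108 and 111 CPM in GFP high and 129, 124 and 131 CPM in GFP low. GFP low was the higher at each time, with no overlap, and the log2 change was 0.26 ± 0.05 (adjusted p = 0.000306). With loess scaling this peak was at 0.01 (adjusted p = 0.849), while the distal fall was at -1.35. The other 4 peaks around this end had log2 values from -0.11 to 0.14 and were not called. Summed over its 10 peaks, MYBL1 did not separate the GFP levels: the mean log2 ratio was -0.01 ± 0.04 (SD, n = 3 times), and it was -0.22 when peaks at gene ends were left out.

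**Figure D2:**
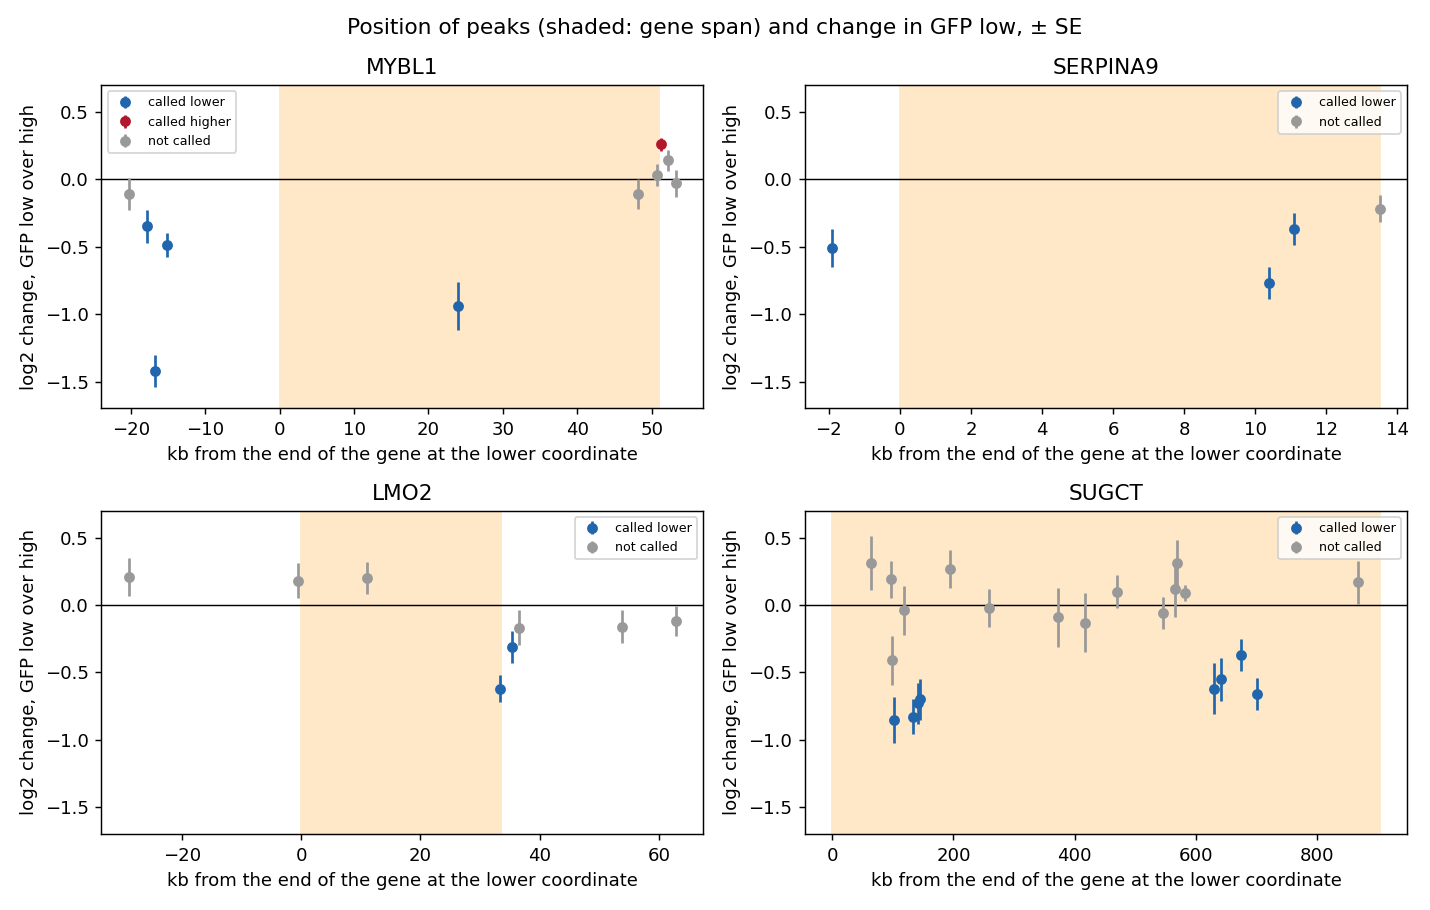
Each panel places the peaks of 1 gene by distance in kb from its end at the lower coordinate (x axis), with the gene span shaded, against the log2 change in GFP low over GFP high ± SE (y axis). At MYBL1 the falls lie outside the lower end and inside the gene and the rise at the other end; at SUGCT the 8 falls form 2 runs.

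LMO2 codes for a LIM-domain adaptor that joins transcription factors into complexes and is a marker of germinal centre B cells. Its most accessible peak, inside the gene 0.2 kb from the end at the higher coordinate (chr11:33891590-33892090), fell. GFP high libraries were at 28.9, 29.4 and 30.7 CPM and GFP low libraries at 18, 19.2 and 20.7 CPM. The values lay far apart and hardly moved with time within a GFP level. The means were 29.7 and 19.3 CPM and the log2 change -0.62 ± 0.10 (adjusted p = 4.66e-05), a fall at a gene end of the kind that 4.24% of such peaks showed. With loess scaling it was -0.67.

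A second LMO2 peak, 1.8 kb outside the same end, also fell (log2 change -0.31 ± 0.12, adjusted p = 0.0412), with an unequal course. It was at 21.2, 20.1 and 17 CPM in GFP high and 21.4, 14.8 and 11.9 CPM in GFP low, so the levels overlapped and the 24 h pair did not differ. This call was lost with DESeq2, with upper-quartile scaling, without the 48 h or the 72 h pair, and without some single columns. The other 6 LMO2 peaks, from 28.9 kb outside the lower end to 62.9 kb on the other side of that end, had log2 values from -0.17 to 0.21 and were not called. Over its 8 peaks LMO2 summed to 119.7, 118 and 117 CPM in GFP high and 112, 101 and 99.4 CPM in GFP low, which did not overlap. The mean log2 ratio was -0.19 ± 0.08 (SD, n = 3 times), and -0.09 without the peaks at gene ends.

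ELL3 codes for a factor of the ELL family, which speeds elongation by RNA polymerase II. Its only peak, 0.7 kb inside the gene at chr15:43776046-43776546, was at 40.9, 44.5 and 44.2 CPM in GFP high and 39.8, 40.3 and 39.3 CPM in GFP low. The GFP low values were all under the GFP high values, by a small margin at 24 h. The log2 change was -0.12 ± 0.08 and was not called (adjusted p = 0.235), but with loess scaling it was -0.25 and called (adjusted p = 0.0109). The peak over the start of ELL3 lies between ELL3 and SERF2 and belongs to SERF2 by the rule, with a log2 change of 0.19 that was not called (adjusted p = 0.110).

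SERPINA9 codes for a serine protease inhibitor, also known as centerin or GCET1, whose expression marks germinal centre B cells. All 4 of its peaks were lower in GFP low at each time, and 3 of them were called. The gene lies on the minus strand at chr14:94462721-94476197, and the peak over its start (chr14:94475989-94476489) holds the promoter window of the RefSeq table (GRCh38.p14, 250 bases before to 50 after the start). That window is shown because all 4 peaks of this gene were lower in GFP low, although the peak over the start was itself not called. It is the stretch chr14:94476148-94476447, read on the minus strand, 5′ to 3′. Capitals mark matches to the motifs searched.

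SERPINA9: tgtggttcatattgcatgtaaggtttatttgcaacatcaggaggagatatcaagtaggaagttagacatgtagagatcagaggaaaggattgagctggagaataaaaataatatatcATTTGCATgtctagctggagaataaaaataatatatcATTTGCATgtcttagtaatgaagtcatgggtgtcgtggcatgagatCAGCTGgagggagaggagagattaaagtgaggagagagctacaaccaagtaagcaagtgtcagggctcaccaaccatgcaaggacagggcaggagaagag

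The SERPINA9 window is 41.0% G and C. It holds ATTTGCAT, the reverse complement of the octamer motif ATGCAAAT bound by OCT factors, at 133 and 96 bases before the start, a motif in 1.77% of the 35116 windows of the table. It also holds CAGCTG, an E-box sequence, 50 bases before the start (17.9% of windows). A match is a description of letters, not a bound site.

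The start-site peak of SERPINA9 was at 21.7, 25.6 and 29.1 CPM in GFP high and 19.0, 20.7 and 26.1 CPM in GFP low. The levels overlapped, since GFP low at 72 h exceeded GFP high at 24 and 48 h, and both levels increased with time. The log2 change was -0.22 ± 0.10 and was not called (adjusted p = 0.0914), though it was with loess scaling (-0.26, adjusted p = 0.0377).

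The largest change at SERPINA9 lay inside the gene, 3.1 kb from its start, at chr14:94472894-94473394. It was at 12.3, 16.8 and 19.0 CPM in GFP high and 7.90, 10.6 and 9.51 CPM in GFP low. No GFP low library reached the lowest GFP high library. The means were 16.0 ± 3.44 and 9.32 ± 1.34 CPM (SD, n = 3) and the log2 change -0.77 ± 0.12 (adjusted p = 2.83e-05). The other 2 called peaks were at -0.37 (2.4 kb inside the start, adjusted p = 0.0188) and -0.51 (1.9 kb outside the opposite end, adjusted p = 0.00456), and both lost the call without the 72 h pair, as did the former without the 48 h pair, with DESeq2 and with loess scaling.

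Summed over its 4 peaks, SERPINA9 was at 56.4, 65.8 and 73.4 CPM in GFP high and 46.9, 47.9 and 52.0 CPM in GFP low. The groups did not overlap, and the gap was wider at 48 and 72 h than at 24 h. The mean log2 ratio of -0.41 ± 0.12 (SD, n = 3 times) was the lowest among the 7 genes with a peak. Around the gene, within 200 kb, 3 of 9 peaks of other genes or of none fell, beside 25.4% of all peaks. The median of the 9 was -0.04 on the log2 scale.

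SUGCT codes for a mitochondrial enzyme that transfers coenzyme A to glutarate, and its transcript marks germinal centre B cells. The gene spans 903.8 kb at chr7:40135005-41038816, and all of its 22 peaks lie in the gene body, 64.4 to 868.2 kb from the start. Of these 8 fell (36.4%) and 14 were not called, so the share was near the 30.3% of all gene-body peaks. The falls formed 2 runs. The first held peaks 102.7, 134.0, 141.3 and 145.2 kb from the start, with an uncalled peak at 118.6 kb among them, and the second held peaks at 630.8, 642.0, 675.4 and 701.4 kb. The 14 uncalled peaks carried log2 values from -0.41 to 0.31. In the second run the calls at 630.8, 642.0 and 675.4 kb were lost with DESeq2. The first of these was also lost without the 48 h pair and under loess scaling, and the other 2 without the 24 h pair.

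The most negative SUGCT peak, 102.7 kb from the start at chr7:40237439-40237939, was at 6.84, 6.03 and 5.74 CPM in GFP high and 3.69, 2.92 and 3.70 CPM in GFP low. The groups did not overlap, and the log2 change was -0.85 ± 0.17 (adjusted p = 0.000291). The peak at 134.0 kb went the same way, from 14.2, 12.1 and 9.48 to 6.80, 6.54 and 6.52 CPM, and its change over times was -0.83 ± 0.13 (chosen after its values were seen). The most accessible SUGCT peak, 582.4 kb from the start and 321.4 kb from the other end, did not: it was at 79.5, 70.4 and 67.4 CPM in GFP high and 77.3, 81.3 and 72.7 CPM in GFP low, with overlap. Its log2 value was 0.09 and was not called, and with loess scaling its sign turned to -0.11. Summed over 22 peaks the levels overlapped, with a mean log2 ratio of -0.13 ± 0.12 (SD, n = 3 times). The peaks at the start of SUGCT lie inside MPLKIP and belong to it by the rule. The stronger of them was at a log2 change of 0.20 ± 0.06 (adjusted p = 0.0135), and at 0.01 with loess scaling.

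GCSAM codes for a germinal centre protein that acts on B cell receptor signalling and motility. No peak was given to it. The nearest peaks, 4.63 to 8.85 kb from its end at the lower coordinate, lie inside the neighbour C3orf52. Of these 5, 1 fell (log2 change -0.35, adjusted p = 0.0226) and 1 rose (0.29, adjusted p = 0.0252).

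**Figure D3:**
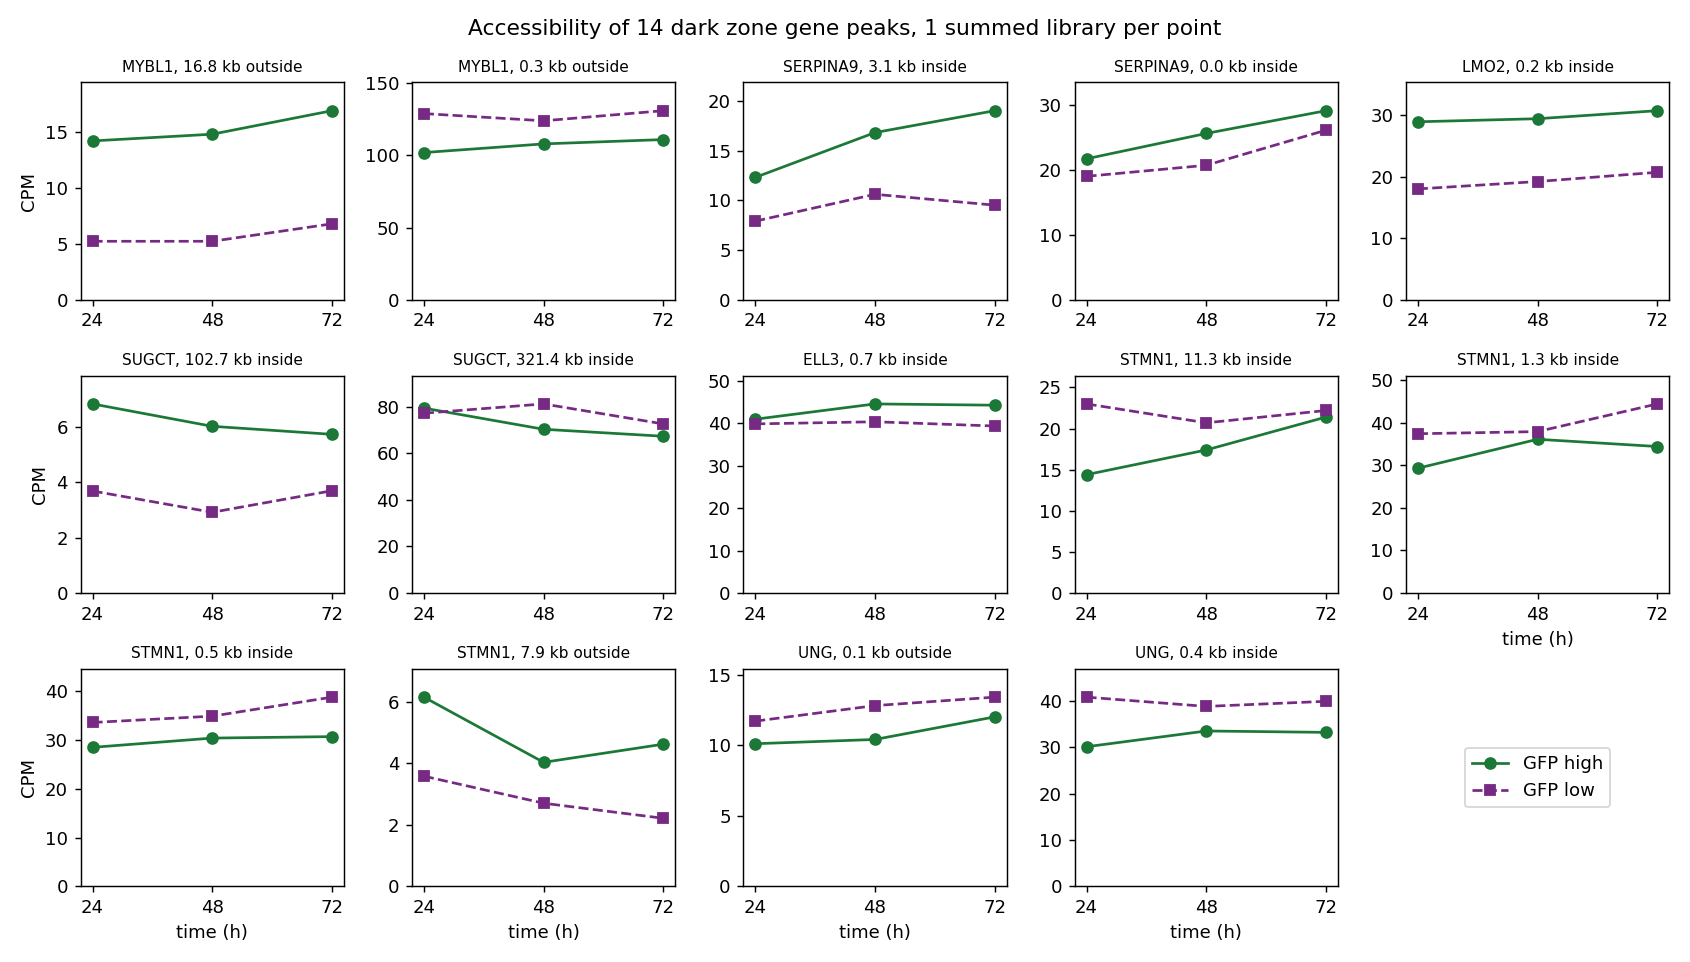
Accessibility in CPM (y axis, from 0) at 24, 48 and 72 h (x axis) is shown for 14 peaks of the 7 genes, with green circles for GFP high and purple squares for GFP low and 1 summed library per point; inside and outside give the distance to the nearer end of the gene. The MYBL1 peak 16.8 kb outside the gene stays at 14.2 to 16.9 CPM in GFP high and 5.23 to 6.79 CPM in GFP low, and the STMN1 peak 11.3 kb inside has its GFP levels apart at 24 h and close at 72 h.

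STMN1 codes for stathmin, which destabilises microtubules and is abundant in dividing cells, and it went the other way. Of its 4 peaks 3 rose in GFP low and 1 fell. UNG, the uracil DNA glycosylase, had 1 rise in 2 peaks. The promoter windows that lie in the called gene-end peaks of these genes are shown, from the same RefSeq table. The STMN1 window is chr1:25906370-25906669 on the minus strand and the UNG window chr12:109097922-109098221 on the plus strand.

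STMN1: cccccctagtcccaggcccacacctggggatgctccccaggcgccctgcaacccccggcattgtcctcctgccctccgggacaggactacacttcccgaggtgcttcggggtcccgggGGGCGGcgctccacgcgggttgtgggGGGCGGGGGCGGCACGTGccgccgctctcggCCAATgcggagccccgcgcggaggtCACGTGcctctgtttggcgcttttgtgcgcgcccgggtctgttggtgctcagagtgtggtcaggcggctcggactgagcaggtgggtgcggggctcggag

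UNG: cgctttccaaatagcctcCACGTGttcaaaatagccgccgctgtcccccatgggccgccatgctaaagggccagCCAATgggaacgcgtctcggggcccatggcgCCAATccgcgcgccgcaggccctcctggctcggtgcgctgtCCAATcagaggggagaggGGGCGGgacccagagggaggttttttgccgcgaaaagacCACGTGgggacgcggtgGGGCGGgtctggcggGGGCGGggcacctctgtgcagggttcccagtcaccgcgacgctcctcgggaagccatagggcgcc

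Both windows are rich in G and C, 72.7% for STMN1 and 68.3% for UNG. Each holds CACGTG, an E-box sequence, in 2 copies, at 94 and 50 bases before the start in STMN1 and at 232 and 47 bases in UNG (7.26% of all windows have it). Each also holds 3 copies of GGGCGG, the GC box (45.0% of windows), and CCAAT occurs in 1 copy in STMN1 and 3 in UNG (34.6%). In STMN1 the last 2 GC boxes and the first CACGTG follow each other without a gap. The SERPINA9 window has none of these 3 motifs. Besides these and the octamer, all 3 windows were searched on both strands for the ETS motif CCGGAAG (10.3% of windows), the AP-1 motif TGANTCA (7.71%), the E2F motif TTCCCGC (6.55%) and the MEF2 motif (CTA and TAG with any 4 bases between, 2.73%), which have no match in them.

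The STMN1 peak over that start (chr1:25906170-25906670) was at 28.5, 30.4 and 30.7 CPM in GFP high and 33.6, 34.9 and 38.8 CPM in GFP low. The groups did not overlap, and the log2 change was 0.26 ± 0.09 (adjusted p = 0.0233). The peak 1.3 kb inside the same end, at 29.3, 36.1 and 34.4 against 37.4, 37.9 and 44.4 CPM, rose by the same 0.26 ± 0.09 (adjusted p = 0.0214). Both calls were lost with loess scaling (adjusted p = 0.139 and 0.161), with DESeq2 (0.0608 and 0.0639) and without the 72 h pair (0.310 for each).

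The third rise at STMN1, 11.3 kb inside the gene at chr1:25895265-25895765, was uneven over time. GFP high was at 14.4, 17.4 and 21.4 CPM and GFP low at 23, 20.7 and 22.2 CPM, so the gap of 24 h had nearly closed at 72 h and the groups overlapped. The log2 change over times was 0.32 ± 0.12 (adjusted p = 0.0363), and 0.16 without the 24 h pair (adjusted p = 0.232). It was also lost with DESeq2 (adjusted p = 0.0884). The fall lay 7.9 kb outside the gene, in a weak peak at 6.15, 4.03 and 4.62 CPM in GFP high and 3.58, 2.70 and 2.21 CPM in GFP low. Its groups did not overlap, and the log2 change was -0.80 ± 0.19 (adjusted p = 0.00155). Summed over 4 peaks STMN1 was higher in GFP low at each time without overlap, with a mean log2 ratio of 0.23 ± 0.09 (SD, n = 3 times).

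UNG has 2 start sites in the table, each inside a peak. The stronger peak (chr12:109097771-109098271) was at 30.1, 33.5 and 33.2 CPM in GFP high and 40.8, 38.8 and 39.9 CPM in GFP low. Every GFP low library exceeded every GFP high library, and the log2 change was 0.30 ± 0.09 (adjusted p = 0.00746). With loess scaling it was 0.19 (adjusted p = 0.0670), and without the 72 h pair 0.32 (adjusted p = 0.0961), so the call was lost in both. The weaker peak (chr12:109097270-109097770) was at 10.1, 10.4 and 12 against 11.7, 12.8 and 13.4 CPM, a log2 value of 0.22 ± 0.12 that was not called (adjusted p = 0.130). Summed, UNG had a mean log2 ratio of 0.29 ± 0.08 (SD, n = 3 times), the highest of the 7 genes.

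POLH codes for DNA polymerase eta, which copies past lesions and adds A:T mutations in antibody genes. Its start lies in a peak that it shares with the neighbour XPO5, which received the peak by the rule (chr6:43575825-43576325). That peak was at 30.2, 33.8 and 35.3 CPM in GFP high and 44.3, 38.7 and 39.0 CPM in GFP low, without overlap. The log2 change was 0.30 ± 0.09 (adjusted p = 0.0127), and 0.18 with loess scaling (adjusted p = 0.0997).

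The course over time was read from 1 library per group, so it has no test and is given with 95% counting intervals. At 24, 48 and 72 h, 3, 2 and 3 peaks of the set were at least 2-fold lower in GFP low, beside 8.16%, 3.85% and 3.83% of all peaks. None of the 51 was at least 2-fold higher at any time, beside 0.212%, 0.226% and 0.0911%. The MYBL1 peak 16.8 kb outside the gene was among them at all 3 times, with log2 differences of -1.43 (interval -1.80 to -1.05), -1.49 (-1.85 to -1.13) and -1.30 (-1.63 to -0.98). The others differed by time: the MYBL1 peak inside the gene and the SUGCT peak at 134.0 kb at 24 h, the SUGCT peak at 102.7 kb at 48 h, and the SUGCT peak at 141.3 kb and the STMN1 peak outside the gene at 72 h. The median difference of the set was -0.11, -0.10 and -0.15, beside 0.01, -0.01 and -0.00 over all peaks.

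**Figure D4:**
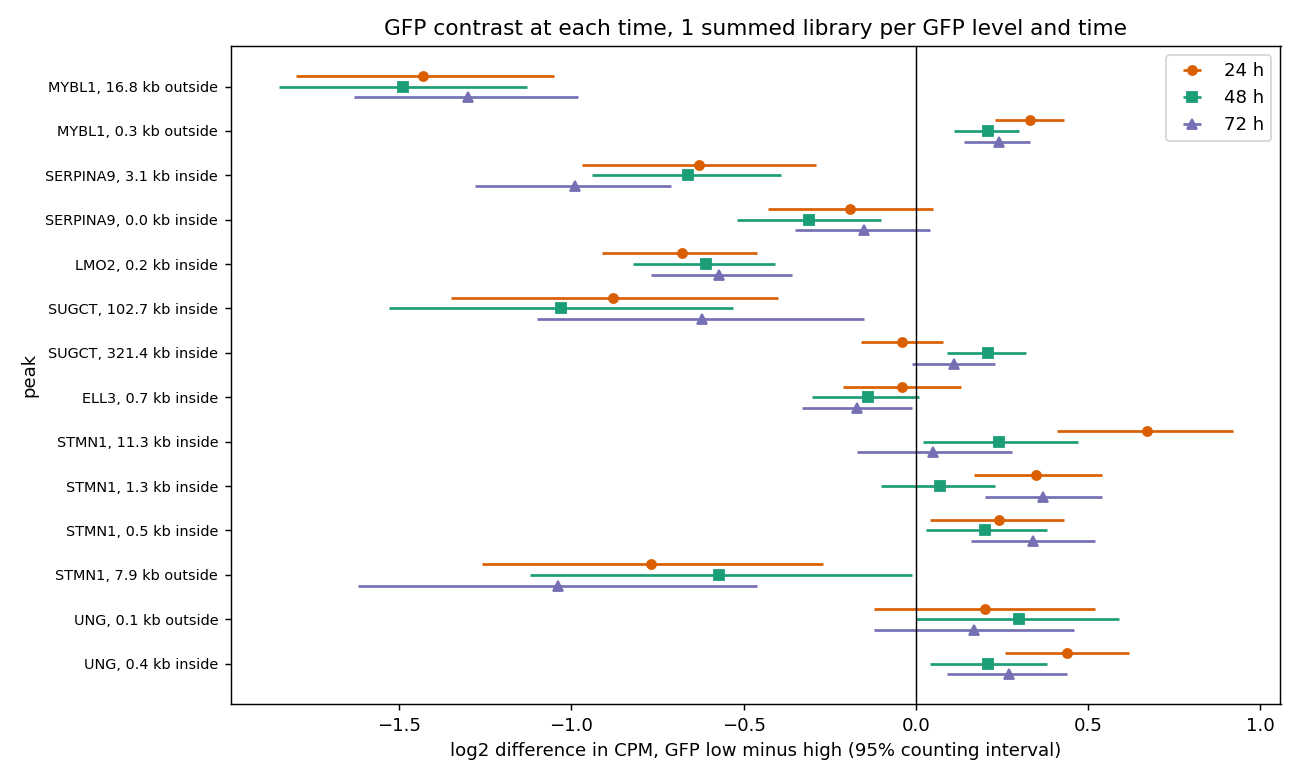
The log2 difference in CPM between GFP low and GFP high (x axis) with its 95% counting interval is shown for 14 peaks (y axis) at 24, 48 and 72 h, 1 summed library per GFP level and time. The 3 intervals of the MYBL1 peak 16.8 kb outside the gene overlap each other, whereas that of the STMN1 peak 11.3 kb inside goes from 0.67 at 24 h to 0.05 at 72 h.

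In 6 peaks the GFP difference at 72 h minus that at 24 h had an interval away from 0. It was below 0 in 4 peaks, beside 7.65% of all peaks, and above 0 in 2, beside 7.14%. Below 0 were the SERPINA9 peak outside the gene, the LMO2 peaks 1.8 kb outside and 62.9 kb from the lower end, and the STMN1 peak 11.3 kb inside. At SERPINA9 the GFP difference went through -0.18, -0.53 and -0.84, as GFP high stayed at 11.5, 10.6 and 10.6 CPM and GFP low was at 10.2, 7.32 and 5.87 CPM. At STMN1 the change was -0.61 (interval -0.95 to -0.28). Above 0 were the SUGCT peaks at 134.0 kb (0.52, interval 0.01 to 1.02) and at 675.4 kb (0.56, interval 0.22 to 0.90).

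Within GFP high, 6 peaks of the set were higher at 72 h than at 24 h and 5 lower by the same interval, beside 9.43% and 10.9% of all peaks. The 6 included the 3 SERPINA9 peaks inside the gene or at its start, by 0.42 to 0.63 on the log2 scale. Within GFP low, 7 were higher and 8 lower, beside 12.4% and 13.5%. The SERPINA9 start was among the 7 (0.46), and the SERPINA9 peak outside the gene (-0.78) and the LMO2 peak 1.8 kb outside (-0.84) were among the 8. For each time statement the D number of the column headers was read as the time.

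The flanks of the genes give the local level of change, but their peaks were not matched to those of the gene by position. Over all peaks the median log2 change was 0.18 at gene ends, -0.07 inside genes and -0.03 between genes. The 2 UNG peaks lie at gene ends, and no SUGCT peak does. A gap between a gene and its flank thus cannot be told apart from one of position. Of all peaks 25.4% fell and 13.4% rose. Within 200 kb of MYBL1, the 28 peaks not given to it had 10 falls, 4 rises and a median of -0.12 on the log2 scale, beside -0.11 at MYBL1. At LMO2 the 22 flanking peaks had a median of 0.19 with 5 falls and 5 rises, while the gene was at -0.14. At SUGCT the 18 flanking peaks were at -0.11 and the gene at -0.08. The 12 peaks around STMN1 were at -0.02 with 1 fall and 1 rise, and its own 4 were at 0.26. Around UNG the 10 flanking peaks had a median of 0.15, beside 0.26 at UNG, and around ELL3 the 16 were at 0.02, beside -0.12.

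Related gene lists put these values in context. Among 20 other germinal centre and dark zone genes, 19 had peaks, 139 in all. Of these 33 fell (23.7%) and 18 rose (12.9%), beside 25.4% and 13.4% of all peaks. Their median log2 change was 0.00. For the next counts only the strongest gene-end peak of each gene was taken, whereas the shares beside them cover every gene-end peak. At that strongest peak, 6 of 18 genes rose and 1 fell, beside 34.4% and 4.24% of all gene-end peaks. With loess scaling 2 rose (1 of them among the 6, TOP2A) and 1 fell, beside 10.4% and 4.07%. Examples are FOXO1, a regulator of the dark zone, by 0.28 ± 0.08 (adjusted p = 0.00710, not called with loess scaling), EZH2, a Polycomb methyltransferase, by 0.23 ± 0.07 (adjusted p = 0.0163), and CXCR4, the receptor that holds cells in the dark zone, by -0.28 ± 0.07 (adjusted p = 0.00318). The strongest calls of this list were distal falls, at BCL6 (32.0 kb outside the gene, log2 change -0.96 ± 0.12, adjusted p = 1.32e-06), EZH2 (19.4 kb outside, -1.07 ± 0.14, adjusted p = 2.19e-06) and CCND3 (24.4 kb inside, -0.91 ± 0.12, adjusted p = 4.93e-06). BCL6 also rose at its gene end (0.26 ± 0.09, adjusted p = 0.0307), so BCL6 and EZH2 each had a gene-end rise beside a distal fall. MYBL1 and STMN1 did too, and the gene-end rises of all these genes were lost with loess scaling. The pairing was seen after the values were known. Called peaks of both directions lay at 8 of the 19 genes with peaks in this list, and at 2 of the 7 in the set. The share over all genes was not counted. Among all peaks, 34.4% of those at gene ends rose, while 30.3% inside genes and 30.6% between genes fell.

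The 15 partners of UNG and POLH in hypermutation and repair had 78 peaks, of which 18 fell (23.1%) and 23 rose (29.5%). Beside these stand 25.4% and 13.4% of all peaks. With loess scaling 13 fell and 9 rose, beside 21.9% and 13.1% of all peaks. Over every gene-end peak (median 23.5 CPM), 34.4% rose, or 10.4% with loess scaling. The next counts take only the strongest gene-end peak of each gene, so the shares are not like for like. At that peak, of 15.9 to 105 CPM, 12 of the 15 rose, and 3 of these 12 did so with loess scaling. Examples are the mismatch repair gene MSH6 (67.0 to 80.7 CPM, 0.27 ± 0.06, adjusted p = 0.00182, not called with loess scaling) and APEX2 (31.3 to 40.1 CPM, 0.36 ± 0.09, adjusted p = 0.00182), an endonuclease for abasic sites such as UNG leaves. The 15 light zone genes had 95 peaks with 27 falls (28.4%) and 8 rises (8.42%), or 21 and 11 with loess scaling. The shares of all peaks are again 25.4% and 13.4%, or 21.9% and 13.1% with loess scaling. The strongest call of this list was a fall inside CD86 (-0.81 ± 0.12, adjusted p = 1.41e-05), a costimulatory ligand. No difference between the lists was tested.

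Loess scaling changed which peaks were called. It called 17 falls, 15 of them among the 18, beside 21.9% of all peaks, and 3 rises, 1 of them among the 5, beside 13.1%. The 4 rises lost were the MYBL1 and UNG gene-end peaks and the 2 STMN1 peaks near its start, averaging 32.8 to 117 CPM, while the STMN1 peak 11.3 kb inside kept its call. The 2 rises gained were weak SUGCT peaks. None of the 23 calls turned to a call of the opposite sign.

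**Figure D5:**
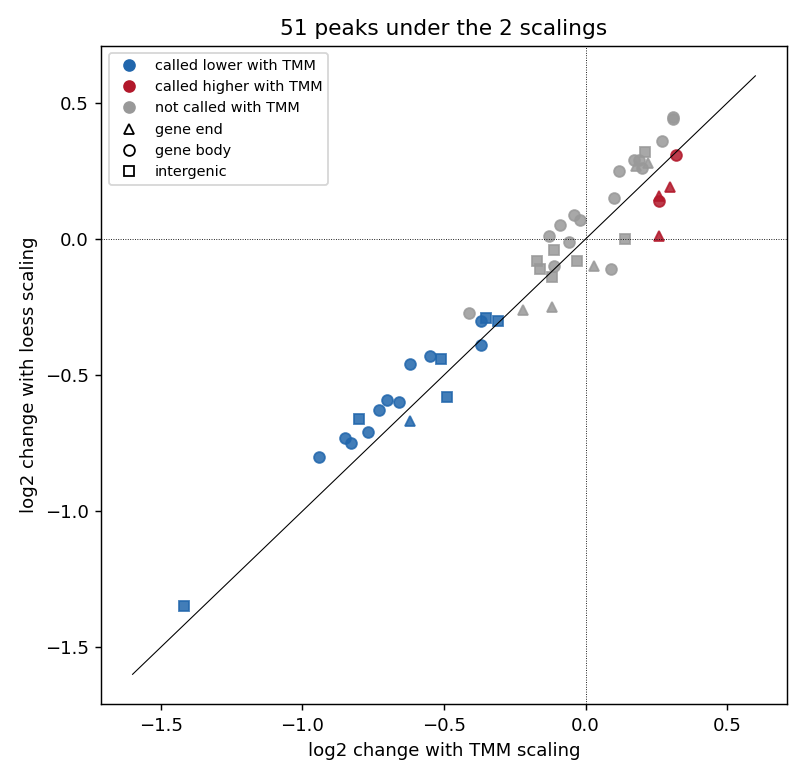
The log2 change of each of the 51 peaks with TMM scaling (x axis) is plotted against that with loess scaling (y axis), with the line of equality; colour gives the call with TMM and shape the position. The MYBL1 gene-end peak drops from 0.26 to 0.01, and the largest fall goes from -1.42 to -1.35.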

How the data were processed

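Omni-ATAC-seq counts of Raji cells were used, whole numbers of reads per peak as deposited by the authors, not normalised, in 18 columns over 71318 peaks of 501 bp. The submitters' processing notes name hg38 and the tools BWA, FastQC, deepTools and R 4.2.1. No source used here gives the peak caller or the treatment of duplicates, and kept duplicates would raise the noise of each count. Columns held 7106939 to 11171849 counts.

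Squared differences between columns of a group were 1.778 to 1.814 times their counting variance in 18 pairs, against 2.21 to 3.472 between times and 4.455 to 7.217 between GFP levels. Columns were therefore summed per group. V numbers of the headers were not used to pair columns. Deviations correlated at -0.00277 to 0.0132 with the same number (median 0.00516) and -0.0111 to 0.0105 with another (median -0.0025). Since counting noise makes up much of these deviations, the correlations cannot show whether V numbers pair samples. edgeR 4.0.16 in R 4.3.3 was used (TMM, robust quasi-likelihood, a model of time and GFP level with 2 residual degrees of freedom, adjusted p under 0.05 over all peaks). The biological coefficient of variation was 9.481% and the median prior degrees of freedom 22.6, so p-values rest largely on spread shared between peaks. The low-count filter removed 0 peaks. Log2 CPM used a prior count of 2, and the 95% counting intervals took 1.80 times the counting variance and cover counting error only.

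Genes are 19938 protein-coding genes of a RefSeq table (GRCh38.p14), without 95 readthrough genes. Promoter windows matched 7 of the 9 members, all but MYBL1 and LMO2, whose strand is therefore not given. Exons, introns and UTRs were not separated. Some genes of the lists are not reported here by name. The members and lists were chosen with earlier results of these data known. Named peaks are, per gene, the strongest at its ends, the strongest, and the called peaks of most negative and most positive change, or all peaks of a gene with at most 3. Other peaks described were chosen after their values were seen. For the other lists the 3 genes with the smallest p and some gene-end peaks are named, the latter chosen after their values were seen. Alternatives were DESeq2 1.42.0, other scalings, filters, prior counts, gene assignments, header readings, the 18 columns as replicates, and pairs or columns left out.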

Additional observations from a re-analysis of the deposited data

How the results depend on the processing

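The count of falls was 11 to 21 over 34 alternatives, and the low of 11 came from giving peaks to the nearest gene end, which takes peaks deep in SUGCT from it. Without a pair of libraries it was 14 to 17, and without a column 17 to 18. DESeq2 called 12. The count of rises was less stable: 3 with loess scaling, 2 with DESeq2, 11 with V numbers read as time, 2 to 6 without a pair (2 without the 72 h pair) and 4 to 5 without a column. With the 18 columns as replicates 11 rose with no replicate block and 10 with the V number as replicate block within time, where the numbers are not known to pair samples; falls came to 20 in both. Calls over all peaks moved too. Rises there numbered 9570 in the main fit, 9362 with loess scaling, 3721 with DESeq2 and 18464 with V numbers read as time. They numbered 2503 without the 72 h pair, and 19286 and 18193 with the 18 columns as replicates. Falls over all peaks went from 18125 to 12810 with DESeq2. The causes were not tested.

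Peaks at least 2-fold lower numbered 1, 1 and 1 at 24, 48 and 72 h with loess scaling, and 1 at 72 h with V numbers read as time. Without a column they numbered 2 to 4, 1 to 3 and 2 to 4 (1 at 48 h without the V0 column of GFP low at that time). Locus sums moved to -0.14 (MYBL1) and -0.25 (ELL3) with loess scaling and, without peaks at gene ends, to -0.22 (MYBL1), -0.55 (SERPINA9) and -0.09 (LMO2). The log2 value of the SUGCT peak 582.4 kb from the start reversed to -0.11 with loess scaling. The falls named at MYBL1, SERPINA9, LMO2, SUGCT and STMN1 as the most negative of each gene kept their call in all 31 alternatives run on them. Without 1 column the STMN1 peak 11.3 kb inside (adjusted p = 0.0588) and the peak over its start (0.0557) lost their calls. Weak peaks, from 2.88 CPM on average, have wider counting intervals than strong ones.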
